A study of Mus musculus with 203 samples.

Results

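The comparison is between 10 libraries of lung parenchyma from mice given house dust mite (HDM) extract and dexamethasone (DEX) and 10 from mice given the same allergen without the drug. They were taken by title, 11-Parenchyma-HDM.AIR.DEX against 11-Parenchyma-HDM.AIR, and make up 20 of the 160 libraries taken at 11 weeks, beside 43 taken at 3 weeks. All mice were female Balb/C, 18 to 20 weeks old, and breathed normal air. HDM was given intranasally on 5 days a week for 3 weeks and then 3 times a week from week 4 to week 11, and DEX was given to separate groups during week 11. Saline (PBS) mice with and without DEX, the dissected airways of the same HDM groups, and HDM mice that also breathed cigarette smoke, again with and without DEX, served for comparison with 10 libraries in each group. Each library is bulk RNA from a tissue piece, so fewer cells of a type and less RNA per cell cannot be told apart in any result here. The labels name no cage, litter or extraction day, and p-values measure the spread between these libraries.

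Dexamethasone is a synthetic glucocorticoid that enters cells and binds the glucocorticoid receptor, which moves to the nucleus, activates some genes through its own DNA sites and represses many inflammatory genes through factors such as NF-kB and AP-1. Glucocorticoids are the main anti-inflammatory treatment in asthma, kill or disperse lymphocytes and eosinophils, prolong neutrophil survival, and promote surfactant production in the alveolar epithelium. Repeated HDM exposure gives mice an allergic lung inflammation with T helper 2 cells, eosinophils, germinal centre and plasma cells, mucus and remodelled matrix.

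Depth was 24.3 to 33.5 M (mega) counts in the HDM libraries and 13 to 31 M in the HDM and DEX libraries, where the second lowest was 23 M. The lowest total belonged to library X32, in which 33.9% of the counts came from leftover ribosomal RNA against at most 0.907% in the other 9 DEX libraries and 0.489% in the HDM group. Total counts were 25.6 ± 5.24 M (SD, n = 10) with DEX and 28.8 ± 2.52 M (n = 10) without, a difference within the spread by a two-sided permutation test (p = 0.0871, and 0.175 without X32). Levels below are in CPM, counts per M counts after scaling of the library sizes, given as the range and median of 10 libraries, and changes are log2 fold changes with their standard error (SE), DEX over no DEX. A gene is said to have risen or fallen when its adjusted p was under 0.05 in limma-voom, fitted over all 160 libraries at 11 weeks.

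Of 18250 genes tested, 2235 (12.2%) rose and 2960 (16.2%) fell with DEX. Large changes were mostly falls, since 5.4% of genes (985) fell and 0.619% rose by at least 1 on the log2 scale, while the median over all genes was 0.01. Counts of list members compare with the 12.2% and 16.2% of all genes. For 332 genes (1.82%) all 10 DEX libraries lay below all 10 HDM libraries, and for 91 (0.499%) all lay above. Without X32 the same fit gave 2051 genes that rose and 2876 that fell.

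The largest falls were in genes of germinal centre B cells, red cell precursors, mucous epithelium and matrix and in a gene of macrophage fusion. Rgs13, a regulator of G protein signalling made by germinal centre B cells, ranged from 1.98 to 7.35 CPM (median 3.35) in HDM libraries and from 0 to 0.354 CPM (median 0.154) with DEX. The groups did not overlap (log2 change -4.67 ± 0.576, adjusted p = 2.5e-11). Dcstamp, needed for the fusion of macrophages and osteoclasts, ranged from 4.88 to 53.9 CPM (median 23.6) without and from 0.385 to 5.07 CPM (median 1.81) with DEX, and 9 of 10 DEX libraries lay below every HDM library (-3.65 ± 0.351). Klk1, tissue kallikrein, fell by 3.55 ± 0.345 and did not overlap between groups. The small proline-rich genes Sprr2a2 and Sprr2a3, near-identical copies whose reads may be shared between them, fell by 3.28 and 3.25.

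Among the largest rises were genes of airway secretion and xenobiotic metabolism and a neutrophil receptor. Bpifa1, an antimicrobial protein of the airway surface, ranged from 1.97 to 30.3 CPM (median 6.36) without and from 16.9 to 124.6 CPM (median 43.8) with DEX, so that 6 DEX libraries lay above every HDM library (2.57 ± 0.522, adjusted p = 3.36e-05). Cyp1a1, a cytochrome P450 induced through the aryl hydrocarbon receptor, rose by 2.99 ± 1.06 (adjusted p = 0.0225), from a median of 1.48 CPM to 13.1 CPM. Cxcr1, a receptor for neutrophil chemokines, had a median of 2.45 CPM without and 23 CPM with DEX (2.49 ± 0.456). The ranges of Cxcr1 overlapped through HDM library X50 at 26.6 CPM and DEX library X12 at 3.45 CPM. Clec12b, an inhibitory lectin receptor, and Lamc3, a laminin chain, rose by 1.78 ± 0.269 and 1.73 ± 0.305, with 8 and 7 DEX libraries above every HDM library.

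**Figure D1:**
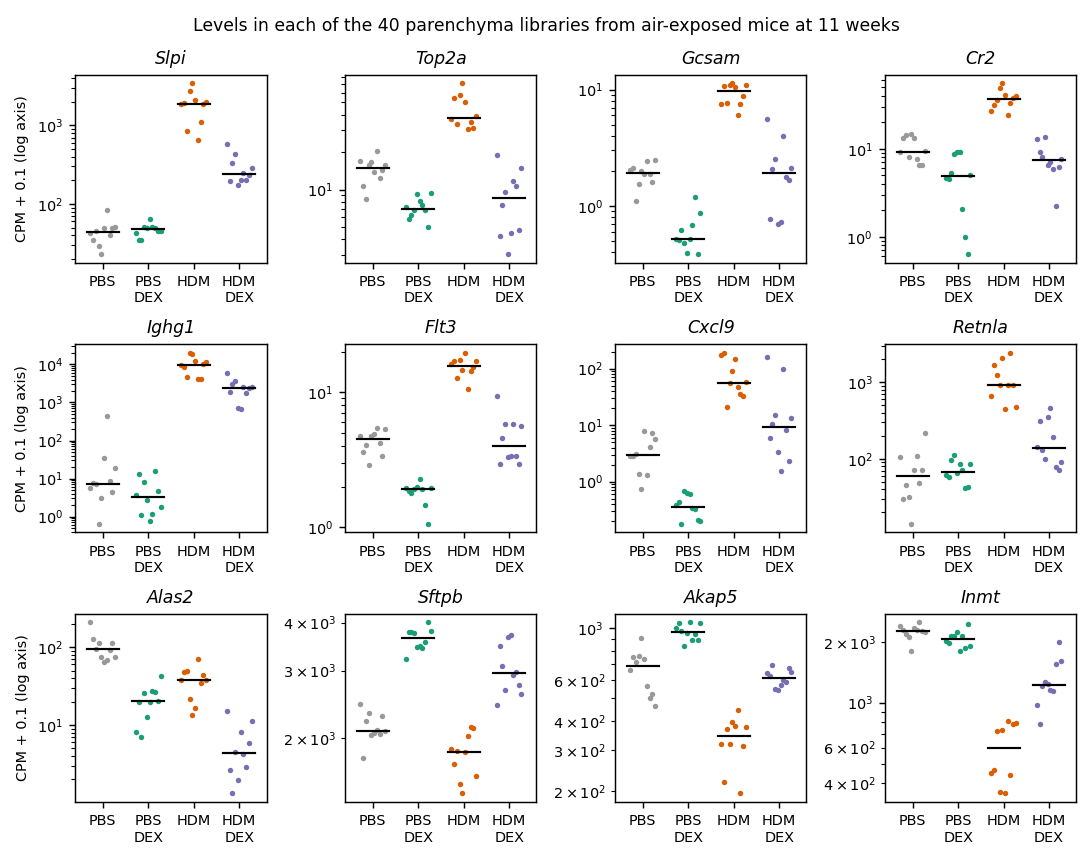
Level of 12 genes (CPM + 0.1, log axis) in each of the 40 parenchyma libraries from mice that breathed air, by group, with the black line at the median of 10 libraries. Slpi, Top2a, Gcsam and Cr2 are lower in every HDM and DEX library than in every HDM library, and Sftpb and Akap5 are higher in every one.

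Few receptor and hormone handling genes passed the test. Nr3c1, the glucocorticoid receptor, ranged from 147.9 to 226 CPM (median 174.3) without and from 155.1 to 214 CPM (median 174.6) with DEX (0 ± 0.0671, adjusted p = 0.98). Of the 15 receptor, chaperone and hormone handling genes, 2 rose and none fell, with a median of 0.13, against 12.2% of all genes that rose and 16.2% that fell. Hsd11b1, which regenerates active glucocorticoid inside cells, rose by 0.45 ± 0.131, and Nr3c2, the mineralocorticoid receptor, by 0.35 ± 0.103.

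Of 39 known glucocorticoid target genes, 10 rose and 2 fell (median 0.05), against 12.2% and 16.2% of all genes. Several textbook targets did not pass the test. Fkbp5, a receptor co-chaperone that feeds back on the receptor, was at 25.9 to 58.3 CPM without and 25.1 to 71.4 CPM with DEX (0.05 ± 0.217, adjusted p = 0.891). The change of Tsc22d3, which encodes the anti-inflammatory protein GILZ, was -0.21 ± 0.235 (adjusted p = 0.548), that of Zbtb16 -0.44 ± 0.509 and that of Per1 -0.45 ± 0.343.

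The targets that rose included Dusp1, a phosphatase that switches off MAP kinases, at 34.5 to 87.1 CPM (median 71.3) without and 63.2 to 128.6 CPM (median 89.7) with DEX (0.44 ± 0.128, adjusted p = 0.00458). Klf15, a metabolic transcription factor, rose by 0.96 ± 0.222, from a median of 9.02 CPM to 15.6 CPM, with 2 DEX libraries above every HDM library. Mfsd2a, a lysolipid transporter of alveolar type 2 cells, rose by 1.01 ± 0.302, Galnt15, a glycosyltransferase, by 0.97 ± 0.289, and Errfi1, a feedback inhibitor of the EGF receptor, by 0.62. Rgs2, a regulator of G protein signalling, fell by 0.58 ± 0.129, with 9 of 10 DEX libraries below every HDM library, and Ddit4, an inhibitor of mTOR signalling, fell by 0.59 ± 0.158.

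The body's own glucocorticoid rises and falls over the day, and the libraries of both groups differed in their clock genes. Dbp, a clock output factor, was at 4.14 to 8.48 CPM in HDM libraries X10 to X130 and at 16.9 to 20.4 CPM in X150 to X190. With DEX it was at 1.88 to 2.85 CPM in X12 to X52, 13.3 to 23.3 CPM in X72 to X112 and 3.86 to 5.28 CPM in X132 to X192. Arntl, a core activator of the clock, was lowest in HDM libraries X150 to X190, at 9.95 to 11.4 CPM, where Dbp was highest. The plot by library code shows both, with Per1 and Tsc22d3. Of 20 clock genes, 3 rose and 2 fell (median -0.09), and without X32 1 rose and 1 fell. Leaving out 12 of the 20 libraries in turn, X32 among them, took the number that rose to 1 or 0. The labels give no collection time, and its part in these values was not tested. With the levels of Dbp and Arntl as covariates, a setting chosen after seeing the data, the change of Fkbp5 was 0.3 and that of Tsc22d3 0.01, neither past the threshold, and 13 of the 39 targets rose. Both levels were measured after DEX was given and may carry part of its effect, which such a fit would take out.

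**Figure D2:**
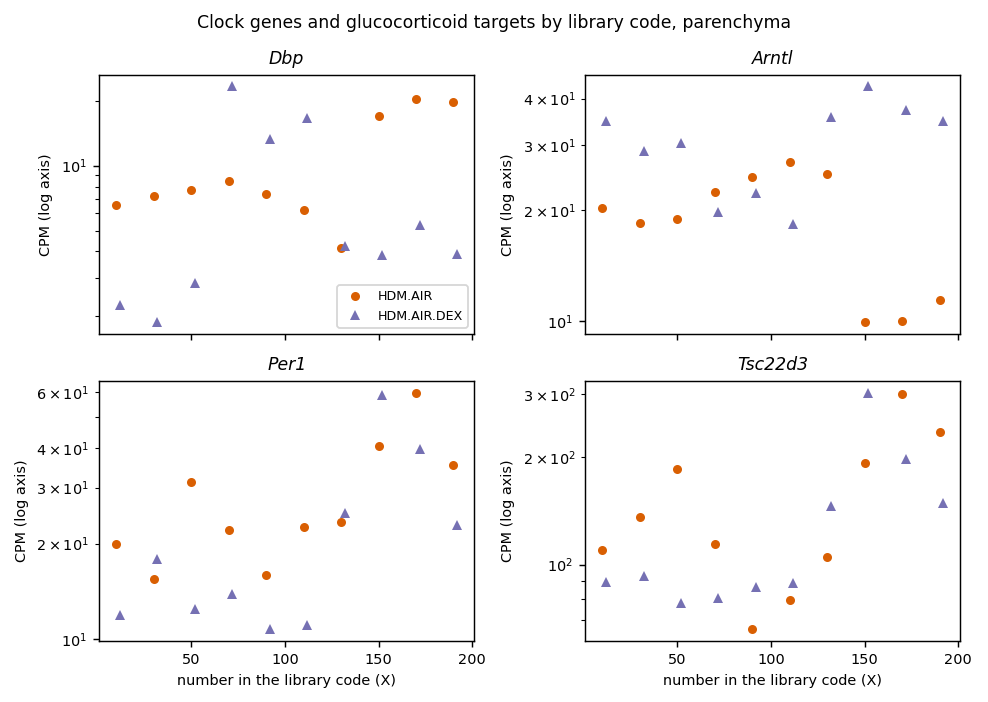
Level (CPM, log axis) of Dbp, Arntl, Per1 and Tsc22d3 in the 20 libraries against the number in the library code, with circles for HDM.AIR and triangles for HDM.AIR.DEX. Dbp lies at 16.9 to 20.4 CPM in the last 3 HDM libraries by code and at 13.3 to 23.3 CPM in DEX libraries X72 to X112, while the remaining 14 lie below 9 CPM.

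Type 2 cytokines were scarce in this tissue, and Il4 and Il13 were scarcer with DEX. Il4, the cytokine of class switching to IgE, ranged from 0.141 to 0.983 CPM (median 0.502) without and from 0.0357 to 0.807 CPM (median 0.116) with DEX (-1.57 ± 0.373, adjusted p = 0.000445). Il13, which drives mucus production, was at 0.036 to 1.02 CPM without and at 0 to 0.261 CPM with DEX, and 5 DEX libraries lay below every HDM library (-2.14 ± 0.481). These levels rest on at most 31 counts per library. Il5, the eosinophil growth factor, had a log2 change of -0.78 ± 0.46 (adjusted p = 0.207), and the epithelial alarmin Il33 one of 0.12 ± 0.2 (adjusted p = 0.72), at medians of 173.9 and 164.2 CPM. The IL-33 receptor Il1rl1 fell by 1.03. Of 17 genes of type 2 signalling, 8 fell and 1, Csf2, rose (median -0.46). Csf2 lost its call without any 1 of 11 libraries, X32 among them.

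Chemokines that draw eosinophils and T helper 2 cells fell together. Of 10 such chemokines and receptors 9 fell (median -1.51). Ccl8, a ligand of the T helper 2 receptor CCR8, ranged from 92 to 317 CPM (median 135.8) without and from 9.96 to 138.1 CPM (median 32.8) with DEX, where 8 libraries lay below every HDM library (-1.98 ± 0.286, adjusted p = 7.02e-09). Ccl24, an eotaxin made by macrophages, was at 0.583 to 5.64 CPM without and at 0.0878 to 0.53 CPM with DEX and did not overlap (-2.05 ± 0.481). Ccl17 and Ccl22, the ligands of CCR4, fell by 1.24 and 1.82. Ccl11, eotaxin-1, fell by 1.08 ± 0.406 with overlapping ranges (2.88 to 39.1 CPM and 3.64 to 14.3 CPM), a call that was lost without any 1 of 8 libraries, with a change of -0.9 without X150. Of 10 eosinophil genes 6 fell (median -0.99), including the receptor Ccr3 by 1.91 ± 0.464, the ribonuclease Ear1 by 1.23 ± 0.295 and the granule protein Prg2 by 0.98. Epx, eosinophil peroxidase, did not pass the filter on low counts, with at most 17 counts in an HDM library and 3 in a DEX library.

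Mucus genes fell in part. Clca1, a secreted protein of goblet cells, ranged from 19.3 to 477 CPM (median 109.7) without and from 2.68 to 70.6 CPM (median 6.79) with DEX, and 7 DEX libraries lay below every HDM library (-3.49 ± 0.672, adjusted p = 1.19e-05). The gel-forming mucin Muc5ac fell by 1.63 ± 0.433, from a median of 8.55 CPM to 2.9 CPM. The trefoil peptides Tff1 and Tff2 fell by 1.83 ± 0.504 and 1.29. Retnlb was at 0.0879 to 0.99 CPM without DEX and at most at 1 count in a DEX library. Of the 17 goblet cell and mucus genes 5 fell and none rose (median -0.62), and the second mucin Muc5b had a log2 change of -0.48 (adjusted p = 0.151). When only the 80 parenchyma libraries were fitted, 9 of the 17 fell.

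Products of alternatively activated macrophages split. Arg1, arginase, ranged from 4.31 to 153.6 CPM (median 26.3) without and from 1.71 to 12.9 CPM (median 4.53) with DEX (-2.7 ± 0.453, adjusted p = 4.98e-07). Retnla, also made by airway epithelium, ranged from 454 to 2450 CPM (median 933) without and from 71.3 to 458 CPM (median 137.3) with DEX, where 9 libraries lay below every HDM library (-2.69 ± 0.318). Cd209e, a lectin of such macrophages, and the checkpoint ligand Pdcd1lg2 fell by 2.52 ± 0.421 and 1.64. In contrast, Chil3, a chitinase-like protein, was at 653 to 13500 CPM (median 2240) without and 1910 to 7080 CPM (median 3140) with DEX (0.28 ± 0.376, adjusted p = 0.638), and its change was -0.28 in edgeR and in DESeq2, again not past the threshold. Chil4, its near-identical neighbour whose reads may be shared with it, had a log2 change of -1.37 ± 0.782 (adjusted p = 0.191). Of the 15 genes 7 fell and 1 rose (median -0.72). The one that rose was Chia1, an acidic chitinase (0.71 ± 0.276), whose call was lost without any 1 of 9 libraries and in edgeR and DESeq2.

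Genes of B cells, germinal centres and antibody were lower with DEX in nearly every list member. Cr2, complement receptor 2 of B cells and follicular dendritic cells, ranged from 24.3 to 55.8 CPM (median 36.7) without and from 2.11 to 13.4 CPM (median 7.34) with DEX, without overlap (-2.38 ± 0.388, adjusted p = 2.54e-07). Of 18 B cell genes 17 fell (median -1.35), 7 of them without overlap against 1.82% of all genes. Among them were the transcriptional coactivator Pou2af1 (-1.77 ± 0.237) and the Fc receptor-like gene Fcrla (-1.87 ± 0.225), both without overlap. Cd22 was the member that did not pass (-0.33, adjusted p = 0.0601).

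Gcsam, a signalling protein of germinal centre B cells, ranged from 6 to 11.3 CPM (median 9.59) without and from 0.596 to 5.47 CPM (median 1.83) with DEX, again without overlap (-2.35 ± 0.233, adjusted p = 2.56e-15). Of 18 germinal centre and lymphoid tissue genes 14 fell (median -1.22). The helper cytokine Il21 fell by 1.43, and the homing chemokines Cxcl13 and Ccl19 by 1.21 and 2.33, while the germinal centre regulator Bcl6 had a log2 change of -0.09 (adjusted p = 0.492). Ighg1, the IgG1 heavy chain, ranged from 4040 to 20500 CPM (median 9950) without and from 670 to 5930 CPM (median 2450) with DEX, where 9 libraries lay below every HDM library (-2.13 ± 0.637, adjusted p = 0.00615). Of 17 plasma cell genes 15 fell (median -1.38), including the chaperone Mzb1 by 1.92 and the joining chain Jchain by 1.56. Ighg2b and Ighg2c, heavy chains whose reads may be shared with closely related genes, fell by 2.51 and 2.6. Ighe, the IgE heavy chain, had at most 26 counts in a library (-1.71 ± 0.673), and its call was lost without any 1 of 11 libraries, X32 among them.

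T cell and natural killer cell genes were lower with DEX in nearly every list member. Of 28 T cell genes 26 fell (median -0.92), and of 14 cytotoxic and natural killer genes all 14 did (median -1.32). Cd3e, a chain of the T cell receptor complex, ranged from 12.2 to 30.8 CPM (median 19.2) without and from 6.31 to 18 CPM (median 10.8) with DEX, and 7 DEX libraries lay below every HDM library (-0.78 ± 0.216, adjusted p = 0.00277). Foxp3, the factor of regulatory T cells, was at 2.07 to 3.82 CPM without and 0.428 to 1.48 CPM with DEX, without overlap (-1.66 ± 0.361). The inhibitory receptor Ctla4 fell by 1.16 ± 0.25, the helper ligand Cd40lg by 1.34 ± 0.309, and the natural killer receptor Ncr1 by 1.51 ± 0.331. Il7r, the survival receptor of resting T cells, and Lef1, a factor of naive T cells, did not pass (-0.1 and -0.29, adjusted p = 0.729 and 0.502). All 6 tested genes of a thymocyte list fell, 3 of them without X52, X112, X70 or X110, and the defining thymocyte genes Rag1, Rag2 and Ptcra had at most 10 counts in any of the 20 libraries.

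Genes of dendritic cells and class II antigen presentation fell in 18 of 19 cases (median -1.36). Flt3, the growth factor receptor of dendritic cells, ranged from 10.4 to 19.6 CPM (median 15.6) without and from 2.82 to 9.25 CPM (median 3.91) with DEX and did not overlap (-1.78 ± 0.154, adjusted p = 1.83e-18). Xcr1, which marks cross-presenting dendritic cells, fell by 1.81 ± 0.214, Itgae, an integrin of dendritic cells and tissue T cells, by 1.32 ± 0.137, and the class II gene H2-Aa and its transactivator Ciita by 1.52 and 1.36. Zbtb46, a factor of classical dendritic cells, was the member that did not pass (0.06, adjusted p = 0.733).

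Macrophage and monocyte genes were mixed. Of 18 genes of monocytes and interstitial macrophages 13 fell (median -0.45), led by Plac8 (-1.32 ± 0.205), Ly6c2 (-1.18 ± 0.209) and the monocyte homing receptor Ccr2, at 144.2 to 251 CPM without and 55.3 to 156.1 CPM with DEX (-1.02 ± 0.193). Of 12 monocyte chemokines and their receptors 8 fell (median -0.73). Spi1, the master factor of myeloid cells, had a log2 change of -0.23 ± 0.147 (adjusted p = 0.263). Of 16 alveolar macrophage genes 4 rose and 4 fell (median 0.07). Pparg, the factor that specifies alveolar macrophages, ranged from 11 to 26.6 CPM (median 16.3) without and from 23.1 to 36.6 CPM (median 29.4) with DEX, where 9 libraries lay above every HDM library (0.78 ± 0.177, adjusted p = 0.00023), and the ion channel Mcoln3 rose by 1.11 ± 0.236. Of the 4 falls, 2 were left without X92, X132, X152, X192, X30 or X70 and 1 without X172 or X150. Itgax and Siglecf were among the falls, with calls lost without any 1 of 7 and any 1 of 5 libraries. Lpl also fell, and its call was kept with each library left out. Among the rises, the call of Fabp5 was lost without any 1 of 10 libraries.

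Interferon genes fell in both branches. Cxcl9, induced by interferon gamma and a ligand of the chemokine receptor CXCR3 on T cells, ranged from 20.5 to 192.2 CPM (median 56.6) without and from 1.46 to 157.96 CPM (median 9.28) with DEX (-2.59 ± 0.428, adjusted p = 3.52e-07). Of the DEX libraries 8 lay below every HDM library, and the other two were X12 at 157.96 CPM and X132 at 99.9 CPM. Cxcl10 and Cxcl11 fell by 2.51 ± 0.404 and 3.2 ± 0.563, and of 14 genes of the interferon gamma axis 13 fell (median -1.35), including Ifng itself by 1.34. Of 20 type I interferon targets 19 fell (median -0.85). Rsad2, an antiviral enzyme, ranged from 9.28 to 41.5 CPM (median 19.3) without and from 2.9 to 9.49 CPM (median 5.66) with DEX (-1.88 ± 0.231), and Isg15 fell by 1.45 and Oas3 by 1.3.

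Interferon-induced genes are switched on through a promoter element bound by the factors STAT and IRF, and the RefSeq promoters of the interferon list carried letters like it more often than most. The letters GAAA, any 2 bases and GAAA again stood on either strand within 250 bases before the start in 6 of 14 type I interferon promoters (42.9%) and in 3.04% of 27025 promoters of that length. The promoters of 4 members that fell are shown with these letters in capitals (TTTC, any 2 bases and TTTC on the other strand), each written along its gene's strand in build GRCm38.p6, for Rsad2 at chr12:26456523-26456612, Isg15 at chr4:156200835-156200924, Oas3 at chr5:120777685-120777774 and Ifit1 at chr19:34640764-34640853.
Rsad2: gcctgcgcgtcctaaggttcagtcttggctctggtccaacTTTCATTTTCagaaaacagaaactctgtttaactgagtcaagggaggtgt
Isg15: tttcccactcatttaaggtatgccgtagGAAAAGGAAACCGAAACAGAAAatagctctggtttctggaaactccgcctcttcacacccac
Oas3: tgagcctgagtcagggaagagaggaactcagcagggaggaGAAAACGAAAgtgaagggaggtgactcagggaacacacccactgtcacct
Ifit1: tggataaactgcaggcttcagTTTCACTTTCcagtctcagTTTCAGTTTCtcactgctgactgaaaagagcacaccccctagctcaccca

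Neutrophil genes mostly did not pass the test in HDM mice. S100a8, a calcium-binding alarmin of neutrophils, was at 65 to 313 CPM (median 186.5) without and 54.9 to 231 CPM (median 125.02) with DEX (-0.56 ± 0.283, adjusted p = 0.131). Of 15 neutrophil genes 2 fell, a share near the 16.2% of all genes, Ly6g by 1.75 ± 0.327 and the cytokine Il1b by 1.15 ± 0.263, and Hdc, which makes histamine, rose by 0.55 ± 0.132. Without X170 4 fell, S100a8 among them (-0.72). Of 11 neutrophil chemokines and growth factors 6 fell (median -0.95), including Il6 by 1.72 ± 0.413, Cxcl3 by 1.3 ± 0.324 and Il17a by 0.96. Cxcl15, a chemokine made by the lung epithelium, rose by 0.79 ± 0.21, from a median of 2150 CPM to 3420 CPM.

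Of 22 NF-kB targets and cytokines 10 fell and 1 rose (median -0.35). Il12b, a subunit of interleukins 12 and 23, ranged from 0.824 to 3.71 CPM (median 1.88) without and from 0.0357 to 0.928 CPM (median 0.261) with DEX, and 9 DEX libraries lay below every HDM library (-2.91 ± 0.37, adjusted p = 7.16e-11). Tnf fell by 0.95, whereas Il18 rose by 0.9 ± 0.201, from a median of 17.9 CPM to 34.6 CPM. The acute phase gene Saa3 (-0.06, adjusted p = 0.927) and Ptgs2, cyclooxygenase 2 (0.43, adjusted p = 0.121), did not pass.

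**Figure D3:**
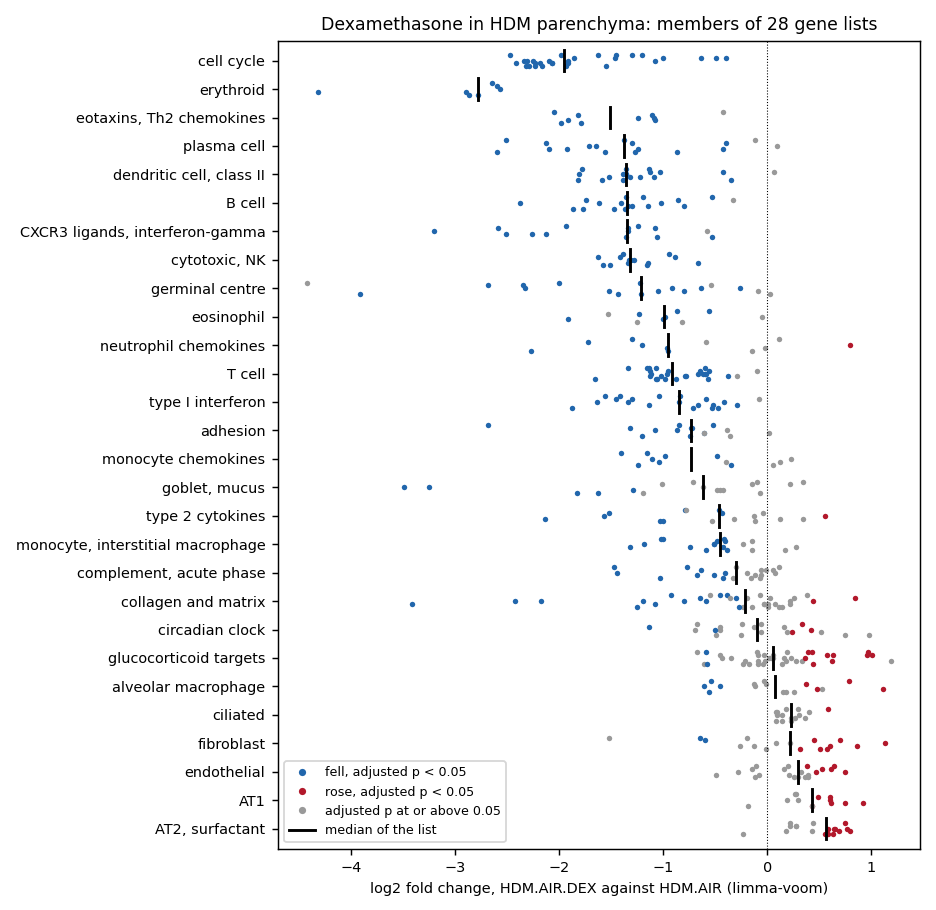
Log2 fold change with DEX of each member of 28 gene lists in HDM parenchyma, blue where the gene fell, red where it rose and grey where it did not pass, with the black line at the median of the list. The cell cycle list has a median of -1.95 with all 30 members blue, and the type 2 alveolar list a median of 0.57 with 10 of 18 red.

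Every one of 30 cell cycle genes fell (median -1.95), and in 28 of them no DEX library reached the lowest HDM library, against 1.82% of all genes. Top2a, the topoisomerase of dividing cells, ranged from 30.3 to 71.4 CPM (median 37.6) without and from 2.94 to 18.7 CPM (median 8.49) with DEX (-2.41 ± 0.266, adjusted p = 3.17e-13). Ube2c, which ends mitosis by marking cyclins for degradation, fell by 2.47 ± 0.334, and the proliferation marker Mki67 by 2.07. Falls were smallest in E2f1 (0.4), Pcna (0.49) and Tyms (0.64). All 30 fell as well without X32 and with any other of the 20 libraries left out.

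Genes of mitosis share promoter elements, the cell cycle homology region (TTTGAA) and the CCAAT box, through which a repressor complex and the factor NF-Y act. TTTGAA stood on either strand within 250 bases before the start in 8 of 25 cell cycle promoters (32%) against 16.3% of all 27025, and CCAAT in 20 of 25 (80%) against 34.5%. A match of these letters is a description of the sequence. The promoters of 4 members are shown from the CCAAT letters to the start region, with both motifs in capitals (ATTGG and TTCAAA on the other strand), along the gene's strand in GRCm38.p6, for Ube2c at chr2:164769860-164769928, Top2a at chr11:99024190-99024252, Kif11, a spindle motor, at chr19:37376323-37376381 and Cdk1, the mitotic kinase, at chr10:69352913-69352967.
Ube2c: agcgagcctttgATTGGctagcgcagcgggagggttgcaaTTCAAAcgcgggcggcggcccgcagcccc
Top2a: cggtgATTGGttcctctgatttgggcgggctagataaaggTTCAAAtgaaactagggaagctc
Kif11: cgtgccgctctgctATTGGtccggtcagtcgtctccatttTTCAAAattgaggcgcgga
Cdk1: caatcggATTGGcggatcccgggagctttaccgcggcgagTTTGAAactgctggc
The full palindromic glucocorticoid response element, AGAACA, any 3 bases and TGTTCT, stood in none of the 34 promoters of glucocorticoid targets found in the table and in 0.0037% of all promoters, which says only that these letters are not in the 250 bases.

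Genes of red cell precursors were lower with DEX in all 7 cases (median -2.78). Alas2, the first enzyme of haem synthesis in red cells, ranged from 13.3 to 71.3 CPM (median 37.9) without and from 1.23 to 14.9 CPM (median 4.27) with DEX, and 9 DEX libraries lay below every HDM library (-2.87 ± 0.415, adjusted p = 6.97e-09). The anion exchanger Slc4a1 fell by 4.32 ± 0.704, with at most 10 counts in a DEX library. The summed level of the 7 genes was 1490 to 7330 CPM without and 153.2 to 1780 CPM with DEX, most of it from the alpha and beta globin genes, whose copies are near identical. Blood left in the tissue carries these transcripts, and the part of blood in them was not tested.

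Adhesion, complement and matrix genes fell in part. Of 15 adhesion molecules 11 fell (median -0.73), including the endothelial selectins Sele by 1.2 ± 0.339 and Selp by 1.08 and the integrin Itgal by 0.85, while Icam1 had a log2 change of 0.02 (adjusted p = 0.929). Of 21 complement and acute phase genes 9 fell (median -0.3). Cfb, factor B of the alternative pathway, ranged from 354 to 1220 CPM (median 698) without and from 184.6 to 632 CPM (median 311) with DEX (-1.03 ± 0.218), and C3 fell by 0.68 ± 0.115. Slpi, a protease inhibitor of mucosal secretions, ranged from 649 to 3460 CPM (median 1890) without and from 173.5 to 586 CPM (median 243) with DEX and did not overlap (-2.64 ± 0.246, adjusted p = 2.24e-16). Of 19 genes of prostanoid and leukotriene synthesis 5 fell against 16.2% of all genes, led by Pla2g7, which degrades platelet-activating factor (-0.83 ± 0.128). From the same list Ptgis, prostacyclin synthase, rose by 0.38 ± 0.127, a call that was lost without X152, X172 or X90.

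Of 34 collagen and matrix genes 14 fell and 2 rose (median -0.21), or 1 rose without X192 or X110. Timp1, an inhibitor of matrix metalloproteinases, ranged from 26.1 to 203.3 CPM (median 77.7) without and from 4.68 to 31.7 CPM (median 16.4) with DEX, where 9 libraries lay below every HDM library (-2.42 ± 0.353, adjusted p = 9.68e-09). Thbs4, a matrix thrombospondin, and Mmp13, a collagenase, fell by 3.41 ± 0.48 and 2.17 ± 0.349, both without overlap. The fibrillar collagens Col3a1 and Col1a1 fell by 1.25 and 0.65, and Postn, periostin, by 0.59 ± 0.115. Eln, elastin, rose by 0.84 ± 0.243, from a median of 58.2 CPM to 110.2 CPM.

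Genes of alveolar epithelium and fibroblasts rose in part. Sftpb, surfactant protein B, ranged from 1440 to 2140 CPM (median 1840) without and from 2440 to 3720 CPM (median 2950) with DEX, without overlap (0.75 ± 0.155, adjusted p = 4.71e-05). Of 18 genes of alveolar type 2 cells and surfactant 10 rose and none fell (median 0.57), 5 of them without overlap against 0.499% of all genes. Sftpc, surfactant protein C, rose by 0.63 and the lipid transporter Abca3 by 0.55, while Sftpd had a log2 change of 0.18 (adjusted p = 0.425). Of 13 genes of alveolar type 1 cells 7 rose (median 0.43). Akap5, a scaffold protein that marks them, ranged from 196.2 to 444 CPM (median 344) without and from 540 to 694 CPM (median 610.0) with DEX and did not overlap (0.92 ± 0.19).

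Of 11 club cell genes 2 rose and 1, Retnla, fell (median 0.31), against 12.2% and 16.2% of all genes. The club cell cytochrome Cyp2f2 rose by 0.7 ± 0.108, with 9 DEX libraries above every HDM library, while the club cell secretoglobin Scgb1a1 had a log2 change of 0.33 (adjusted p = 0.0948). In ciliated cells 1 of 15 genes rose, Tppp3 (0.58 ± 0.106), with a median of 0.23, while 6 rose without X90 and 2 without X72, X112, X50, X70 or X170. Slc26a9, an epithelial chloride channel, was at 53.4 to 86.6 CPM without and 99.8 to 150.5 CPM with DEX (0.92 ± 0.166), and Scnn1b, a subunit of the epithelial sodium channel, at 44.4 to 63.5 CPM and 69.3 to 87.1 CPM (0.59 ± 0.115), neither with overlap. Of 22 channel and receptor genes 6 rose and 1 fell (median 0.19).

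Inmt, a methyltransferase of alveolar fibroblasts, ranged from 357 to 815 CPM (median 594) without and from 787 to 1990 CPM (median 1220) with DEX (1.13 ± 0.147, adjusted p = 1.41e-10). Of 17 fibroblast genes 8 rose and 2 fell (median 0.22). The rises included Limch1 (0.7 ± 0.139) and Wnt2 (0.86 ± 0.24) and the falls Dpt, dermatopontin (-0.65 ± 0.131). Dcn, decorin (-0.6 ± 0.243), was lost without any 1 of 12 libraries, X32 among them. Of 21 endothelial genes 6 rose (median 0.29), led by the phosphatase Ptprb (0.75 ± 0.187), but 3 rose without X90 or X110. Cyp4b1, a lung cytochrome P450, and Gstm1, a glutathione transferase, rose by 0.97 ± 0.138 and 0.82 ± 0.0979, whereas Hmox1, haem oxygenase, and Slc7a11, a cystine transporter, fell by 0.75 ± 0.212 and 0.91 ± 0.191. In the xenobiotic and antioxidant list 8 of 25 rose and 5 fell (median 0.19).

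Genes of neighbouring tissues gave few calls. None of 11 adipose and none of 14 cardiac muscle genes passed in limma-voom, where DESeq2 had 3 adipose and 3 cardiac muscle genes lower and 1 cardiac muscle gene higher. The summed level of the cardiac list was 36.1 to 975 CPM (median 42.9) without and 37.7 to 67.4 CPM (median 46.6) with DEX, so the medians were close. Of the leftover ribosomal genes, mt-Rnr1 and mt-Rnr2 passed with all libraries (0.78 and 0.92) and neither did without X32 (0.12 and 0.26). Of the genes named by rule, 11 changed their call without X32, and those described here are Csf2, Ighe, Dcn, mt-Rnr1 and mt-Rnr2.

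Saline mice placed these levels on a scale, with the caution that each comparison with them shares libraries with the one above. The HDM libraries were higher than the PBS libraries in 5951 genes (32.6%) and lower in 4907 (26.9%), and the HDM and DEX libraries were higher than the same PBS libraries in 4821 (26.4%) and lower in 4151 (22.7%). Of the 30 cell cycle genes, 30 were higher in HDM than in PBS mice, and with DEX none was higher and 18 were lower. The B cell list had 17 of 18 genes higher than PBS without DEX and 7 with it, and the plasma cell list 16 of 17 without and 15 with it. Ighg1 had a median of 7.27 CPM in PBS libraries, below the 670 CPM of the lowest HDM and DEX library. Slpi had a PBS median of 43.7 CPM and stayed 2.66 above it in HDM and DEX libraries on the log2 scale, against 5.3 without DEX. Erythroid genes were lower than in PBS mice in all 7 cases without DEX (median -1.53) and with it (median -4.41). Of 21 endothelial genes 20 were lower than in PBS mice without DEX and 20 with it, with medians of -1.37 and -1.17.

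The change with DEX was then compared with that in PBS mice, where 1939 genes rose (10.6%) and 2185 fell (12%). A test of the difference of the 2 changes found 1098 genes (6.02%) with a higher and 1165 (6.38%) with a lower log2 change in HDM mice. Slpi had a log2 change of 0.12 in PBS mice, and the difference was -2.76 (95% interval -3.39 to -2.14, adjusted p = 1.07e-10). For Retnla the change in PBS mice was 0.27 and the difference -2.97 (-3.79 to -2.14). C3 rose by 0.41 in PBS mice and fell in HDM mice (difference -1.1, -1.4 to -0.8), as did the cannabinoid-responsive receptor Gpr55 (-1.5, -1.88 to -1.12) and the antioxidant enzyme Srxn1 (-0.96, -1.22 to -0.69).

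Cell cycle genes fell in both kinds of mice, by less in PBS mice, where 18 of 30 fell (median -0.6), and 27 of 30 had a lower change in HDM mice by the test of the difference. For Top2a the change was -1 in PBS mice and the difference -1.41 (-2.18 to -0.64). Neutrophil genes rose in PBS mice, 9 of 15 with a median of 0.77, and the same number, 9, had a lower change in HDM mice. S100a8 rose by 1.02 in PBS mice and the difference was -1.58 (-2.36 to -0.81). Endothelial genes went the other way, with 5 of 21 lower with DEX in PBS mice and 7 of 21 with a higher change in HDM mice. Differences of this direction were found for Nr2f2, a venous endothelial factor, which fell by 0.22 in PBS mice (difference 0.76, 0.53 to 0.99), the TGF-beta co-receptor Tgfbr3 (0.97, 0.67 to 1.26) and Inmt (1.25, 0.81 to 1.69). The matrix binding protein Ltbp4 had a difference of 1.29 (0.92 to 1.65), from a log2 change of -1.33 in PBS mice and -0.05 in HDM mice.

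For Flt3, Sftpb, Cr2 and Alas2 the difference between HDM and PBS mice did not pass, with intervals of -1.01 to 0.03, -0.45 to 0.43, -2.21 to 0.28 and -1.46 to 0.52. In the T cell list 19 of 28 genes fell in PBS mice (median -1) and none differed past the threshold in either direction. Among the glucocorticoid targets 6 rose and 9 fell in PBS mice (median -0.15). Klf15 fell there by 0.46 (difference 1.42, 0.87 to 1.97), and the change of Dusp1 was -0.21 (difference 0.65, 0.29 to 1.01). Tsc22d3 fell by 1.13 in PBS mice, and the difference of 0.92 (0.25 to 1.59) did not pass (adjusted p = 0.0572).

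Clock genes moved with this comparison too. Of 20 clock genes 4 rose and 8 fell with DEX in PBS mice (median -0.58). Dbp was at 40.9 to 73.2 CPM in PBS libraries X126 to X186 and at 4.71 to 8.51 CPM in the other 6, and Tsc22d3 was at 425 to 555 CPM in the former and at most at 313 CPM in the latter. In PBS and DEX libraries Dbp was at 13 to 22 CPM in X68 to X108 and at 2.18 to 6.67 CPM in the rest. Thus the libraries with high Dbp were not at the same place in the run of codes with and without DEX. With Dbp and Arntl as covariates the change of Tsc22d3 in PBS mice was -0.47 and its difference 0.47 (adjusted p = 0.354), the change of Klf15 in PBS mice -0.08 (adjusted p = 0.811) and its difference 1.16 (adjusted p = 0.00136), while Fkbp5 rose by 0.77 in PBS mice, against a change of 0.08 without the covariates. Dbp and Arntl were measured after DEX and may carry part of its effect, so these values are not DEX effects freed of collection time. With runs of 20 library codes as a covariate instead, the difference of Tsc22d3 was 0.92 and passed (adjusted p = 0.00611). The number of genes with a difference was 1129 upward and 1334 downward with the first and 1621 and 1668 with the second. The part of collection time in them was not tested.

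**Figure D4:**
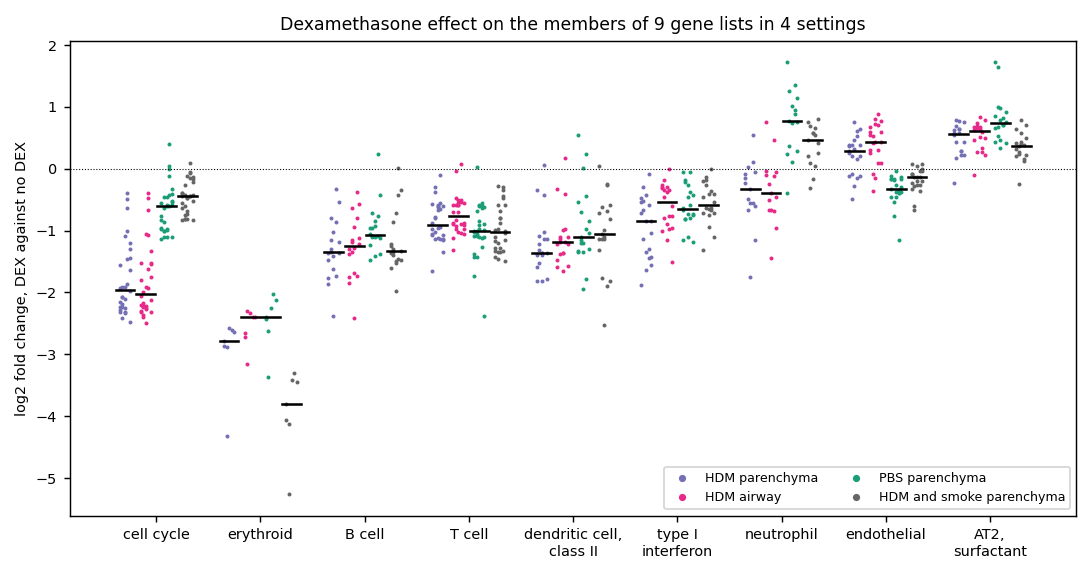
Log2 fold change with DEX of the members of 9 gene lists in HDM parenchyma, HDM airway, PBS parenchyma and parenchyma of HDM mice exposed to smoke, with the black line at the median. The cell cycle median is -1.95 in HDM parenchyma and -2.02 in HDM airway against -0.6 in PBS parenchyma and -0.44 with smoke.

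In the airways of the same HDM groups 2282 genes rose (12.5%) and 2929 fell (16%). The test of the difference between tissues gave 0 genes in limma-voom, with 222 at an unadjusted p under 0.05 (1.22% of genes), 96 in edgeR and 101 in DESeq2. Airway and parenchyma libraries with neighbouring codes deviated together, though the neighbour was not the closest match for every library. With these pairs as a block the count was 0, with 719 at an unadjusted p under 0.05 (3.94% of genes). A share near 0.05 is due by chance where no gene differs, so the 1.22% is low. The main fit took the libraries as independent, and its count of 0 does not show that the tissues changed alike. In that fit the intervals of the difference ran from -0.72 to 0.69 for Top2a, -0.47 to 0.39 for Sftpb and -0.61 to 0.2 for Flt3. Their median width to either side over all genes was 0.33. All 30 cell cycle genes fell in the airway. In the goblet cell list 13 of 17 genes fell there against 5 of 17 in the parenchyma. In limma-voom 0 of the 17 differed between tissues past the threshold (median difference, parenchyma less airway, 0.26). Muc5ac fell by 2.55 on the log2 scale in the airway and by 1.63 in the parenchyma, and the interval of the difference ran from -0.12 to 1.95.

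In HDM mice that also breathed smoke 449 genes rose with DEX (2.46%) and 985 fell (5.4%). The difference between HDM mice without and with smoke passed for 381 genes with a higher (2.09%) and 654 with a lower change (3.58%) without smoke, and in either direction for 1035 genes with all libraries and 678 without DEX library X172. Dbp was uneven here too, at 52.8 and 62.8 CPM in HDM and smoke libraries X98 and X118 and at most at 13 CPM in the rest. With DEX it was at 60.3 CPM or more in X60, X100, X120 and X140 and at most at 9.58 CPM in the rest. The part of collection time in these differences was not tested. Of 30 cell cycle genes 5 fell with smoke (median -0.44), and 29 had a lower change without it. Ccne2, a cyclin of DNA replication entry, had a log2 change of -0.07 with smoke (difference -1.9, -2.49 to -1.31), and Wdhd1, a replication factor, one of -0.16 (-0.98, -1.3 to -0.66). Timp1 had a log2 change of 0.69 with smoke (difference -3.11, -4.04 to -2.18, adjusted p = 5.61e-06). Tnip3, an NF-kB feedback inhibitor, and Serpinb9b, a granzyme inhibitor, had differences of -1.89 (-2.5 to -1.29) and -2.55 (-3.23 to -1.87). Higher changes without smoke were found for the thyroid hormone receptor Thra (0.65, 0.45 to 0.84) and for Gstm1 (0.89, 0.61 to 1.17).

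B cell, T cell, dendritic and erythroid genes fell in the smoke groups too. The counts were 15 of 18 B cell genes, 21 of 28 T cell genes, 15 of 19 dendritic cell and class II genes and all 7 erythroid genes. None of these lists had a member past the threshold of the difference. The interval of the difference for Flt3 was -0.44 to 0.49 and that for Cr2 -1.58 to 0.79. In the cytotoxic list 8 of 14 fell with smoke, in the plasma cell list 9 of 17, and in the germinal centre list 5 of 18 with 1 that rose. Without smoke 14, 15 and 14 members of these lists fell. The germinal centre and plasma cell lists each had 1 member with a lower change without smoke. Of the alveolar type 2 genes 4 of 18 rose with smoke (median 0.38), and none differed past the threshold. Sftpb rose by 0.71, with an interval of the difference from -0.4 to 0.47.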

How the data were processed

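Lung pieces were sequenced as bulk RNA, 203 libraries in all, and the 160 libraries taken at 11 weeks (16 groups of 10) entered the fit. The deposited table holds estimated counts per gene, which per the labels the authors made with bcl2fastq 2.20.0.422, STAR 2.5.1b, RSEM 1.2.31 and kallisto 0.44.0 on mm10; which of the last pair gave the values is not given in the sources used here. Fractional values made up 20.3% of those above 0, and values were rounded before the fit. An estimate shares reads among near-identical genes. All sample columns were mapped by the library code in the title (0 not used). Of 43346 identifiers, 884 had no match in the reference table when compared without version.

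Genes were kept with at least 10 counts in a library of median size (0.353 CPM) in 9 or more libraries. TMM scaling, voom and the moderated test of limma 3.58.1 with edgeR 4.0.16 in R 4.3.3 were run with one mean per group, and p-values were adjusted by Benjamini-Hochberg over the 18250 genes. Intervals are 95%. Differences of DEX effects were contrasts of the same fit, and single library values were compared by a two-sided permutation test with 1e+05 resamples. Steps were tested on simulated data. Genes were named by rule: the 10 largest changes each way (1 CPM or more), 24 chosen genes, the 3 largest each way in each of 46 lists, and 5 each way for each difference. Members of lists cited without passing this rule were chosen after their values were seen. The lists and the comparison were chosen with earlier results of these data known. Alternatives were edgeR, DESeq2 1.42.0, other scalings and filters, fewer libraries, quality weights, library code runs, and each library left out. Airway and parenchyma libraries of neighbouring codes deviated together (r = 0.11 to 0.565 in 20 pairs). For HDM libraries X70, X90, X110 and X130 and DEX library X92 another airway library of the same group was the closest. The labels do not say that they share a mouse. Some genes are not reported here.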

Additional observations from a re-analysis of the deposited data

Results flagged for a closer look

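In 8 of 110 groups of 10 libraries examined, 1 library lay apart from the rest, its gap to the nearest library divided by the whole range being above Dixon's critical value for 10 values. Chance alone gives about 1 in 20 such groups. The ribosomal RNA share was one (ratio 0.979) through DEX library X32 at 33.9%, as was the total count of the same library (0.556). Among HDM libraries the ribosomal share of X90, 0.489%, stood apart (0.603), and so did the mitochondrial share of X110, 2.67% (0.474). For genes the ratio was taken on the scale of log2(CPM + 0.1). Fkbp5 was at 71.4 CPM in DEX library X152 against at most 39.8 CPM in the others (0.559), and Cr2 was at 2.11 CPM in the same library against at least 5.79 CPM (0.542). Muc5ac was at 12.8 CPM in X32 against at most 4 CPM in the other DEX libraries (0.613). Dusp1 was at 34.5 CPM in HDM library X90 against at least 56.1 CPM (0.525). On the CPM scale itself the ratio was 0.683 for Fkbp5 and 0.807 for Muc5ac, and for Cr2 and Dusp1 it was 0.326 and 0.411, below the critical value.

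The change with DEX in HDM mice differed from that in PBS mice by the test of the difference in 1098 genes upward and 1165 downward, and from that in HDM mice with smoke in 381 upward and 654 downward. On the log2 scale, the HDM change less the PBS change was -2.76 for Slpi, -2.97 for Retnla, -3.16 for Timp1, -1.96 for Tnip3, -1.58 for S100a8, -1.5 for Gpr55 and -1.25 for Serpinb9b. It was -1.41 for Top2a, -0.93 for Ccne2, -0.88 for Wdhd1, -1.1 for C3 and -0.96 for Srxn1. Higher changes than in PBS mice were 1.42 for Klf15, 1.29 for Ltbp4, 1.25 for Inmt, 0.97 for Tgfbr3, 0.76 for Nr2f2, 0.69 for Gstm1, 0.65 for Dusp1 and 0.45 for Thra.

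Against HDM mice with smoke the difference was -1.53 for Slpi, -1.89 for Retnla, -3.11 for Timp1, -1.89 for Tnip3, -2.55 for Serpinb9b, -1.59 for Top2a, -1.9 for Ccne2, -0.98 for Wdhd1 and -0.52 for Srxn1. It was 1.31 for Klf15, 0.94 for Inmt, 0.89 for Gstm1, 0.72 for Dusp1, 0.65 for Thra, 0.6 for Tgfbr3 and 0.53 for Nr2f2. Both sets of differences use the same 20 HDM libraries, so they are not independent of each other.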

How the results depend on the processing

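No named gene that passed the threshold in either fit turned its direction under an alternative. Of those that did not pass, Fkbp5, Tsc22d3, Il33, Chil3 and Ltbp4 changed sign, to -0.06 at the lowest for Fkbp5, 0.01 for Tsc22d3, -0.01 for Il33, -0.28 for Chil3 and 0.03 at the highest for Ltbp4, and Nr3c1 lay between -0.03 and 0.04. The number of genes that rose ranged from 1931 to 2422 and that fell from 2583 to 3116 when each of the 20 libraries was left out, and the genes that changed by at least 1 on the log2 scale from 0.548% to 0.784% of genes tested up and 5.04% to 5.85% down. The 0.619% of genes that rose by at least 1 became 1.01% with edgeR, 1.08% with DESeq2, 0.23% with a filter at 10 CPM and 1.08% without a filter, and the 5.4% that fell by as much became 3.27% with the filter at 10 CPM and 3.59% without a filter. That filter left 12187 genes and no filter 29921. The difference between tissues, 0 genes, became 96 with edgeR, 101 with DESeq2 and 2 without a filter, and stayed 0 with the pairing of neighbouring codes as a block and with each library left out. The difference from smoke mice, 1035 genes, became 1645 with runs of 20 library codes as a covariate, and 678 to 1459 with each library left out, the lowest without DEX library X172. That from PBS mice ranged from 1785 to 2749. The cause was not tested. Of the named genes 91.5% to 99.5% kept their side of the threshold in each fit that held all of them. A fit of the 20 libraries alone did not hold all of them, and 90.5% of those it tested kept their side. Genes with few counts, such as Il4, Il13 and Ighe, are limited by depth.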
